A study of Zea mays with 7 samples.

Results

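Small RNAs recovered with an antibody against AGO104 were compared with those recovered with an antibody against AGO105, in the length classes named 23 and 25. These classes flank class 24, the size of the siRNAs of RNA-directed DNA methylation (RdDM). The comparison used 4 of the 10 deposited coverage tables that carry an antibody and a length class from 21 to 25 in their names. Class 24 of both antibodies served as the reference for shared positions, and classes 21 and 22 were used for scale. The series holds RNA immunoprecipitation (RIP) of maize (Zea mays) immature ears, with 7 libraries of 4 kinds: B73 control, Mop1-1/mop1-1, mop1-1/mop1-1 and ago104. The genotype and the number of libraries behind each class table are not given in the sources used here, so the tables were not assigned to a genotype. The labels name both antibodies together for each library. Each antibody and class had 1 table and no replicate, so no test between antibodies was possible. All intervals below cover counting error only. No input or mock precipitation was analysed here, so a difference between the tables is no measure of binding. A difference in genotype or pooled libraries between the tables of the antibodies cannot be told apart from a difference of antibody.

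RdDM starts from non-coding RNA of a plant-specific polymerase. An RNA-dependent RNA polymerase, MOP1 in maize, makes the second strand, and Dicer-like enzymes release 24-nt siRNAs from the duplex. Argonaute proteins of the AGO4, AGO6 and AGO9 clade load these siRNAs and guide DNA methylation to matching sequences, mostly transposons and other repeats. AGO104 is a putative homolog of Arabidopsis AGO9, which is known from reproductive tissue, and AGO105 is a close homolog of Arabidopsis AGO4. The antibodies were raised against separate peptides of the 2 proteins. Fragments of abundant structural RNAs, such as ribosomal RNA (rRNA) and transfer RNA (tRNA) of the nucleus and the organelles, also occur in small RNA libraries of any size class.

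The depth in column 4 of each table was summed over bases. The sum was 5213968 for AGO104 and 9971152 for AGO105 in class 23, and 4560302 and 7497724 in class 25. The AGO105 tables were thus the deeper ones, and they covered 647416 against 341281 bases in class 23 and 314060 against 154900 bases in class 25. At least 239428 and 457068 alignments began in the class 23 tables, and 190521 and 309893 in the class 25 tables. Values below are scaled coverage, that is coverage per 1000000 of the summed coverage of the same table, and a fold is AGO104 over AGO105 unless stated otherwise.

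The class name was not the aligned length. Stretches of uniform depth with no covered neighbour were 21 bases long in 13182 of 13980 cases for AGO104 class 23 (94.3%, 95% Clopper-Pearson interval 93.9 to 94.7) and in 25722 of 27415 for AGO105 (93.8%). In class 25 they were 23 bases long in 4545 of 5028 (90.4%, 89.5 to 91.2) and 10843 of 11768 cases (92.1%, 91.6 to 92.6). Class 24 stretches were mostly 22 bases long in both antibodies (92.0 and 92.3%). Aligned length was therefore 2 bases below the class name in most stretches, in the same way for both antibodies. Why it is shorter is not given in the sources used here.

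Class 23 took a larger share of the coverage of the 5 classes in AGO104 (14.9%) than in AGO105 (13.5%), a ratio of 1.10 (1.08 to 1.12). Class 25 took 13.0 and 10.2%, a ratio of 1.28 (1.25 to 1.31). By covered bases the class 25 shares were 5.87 and 5.78%, a ratio of 1.02, so that the class 25 excess of AGO104 lay in depth and not in the number of bases covered.

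Most of the coverage of both classes lay on nuclear rRNA genes, with the regions of chromosomes 2 and 10 added together. The maize rRNA unit holds 3 genes that RefSeq places side by side on chromosome 10 and annotates only as rRNA: LOC111590394 (1811 bases), LOC111590322 (156 bases) and LOC111590397 (3383 bases). Their order and lengths are those of the small-subunit RNA, the short RNA of the large subunit and the large-subunit RNA. They were placed on the tables by their lengths and spacing, because the build of the tables is not stated. The 4 tables had a coverage of 0 at the positions that RefSeq gives these genes, so the tables do not follow the RefSeq build. The region chr10:35063468-35073680 took 27.4% of the AGO104 and 29.8% of the AGO105 coverage in class 23, and chr2:157586169-157595268 took 26.6 and 28.3%. In class 25 these regions took 31.9 and 35.6%, and 30.8 and 33.6%. AGO105 was the higher antibody in each region and class. The depth at the chromosome 2 copy of LOC111590322 equalled that of the chromosome 10 copy at 100.0% of covered bases, and for LOC111590394 at 84.7%, so alignments to one copy cannot be told apart from those to the other.

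Together the rRNA regions held 53.9 and 58.1% of the class 23 coverage and 62.7 and 69.3% of the class 25 coverage. A read aligned to both regions counts in each, so these sums are shares of coverage and not of reads. Each region alone held between 26.6 and 35.6%. In class 24 the shares were 17.1 and 16.4%, in class 22 they were 44.0 and 43.8%, and in class 21 they were 25.1 and 22.7%. By coverage, classes 23 and 25 were thus the classes richest in rRNA in both antibodies. Class 24 was the poorest.

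**Figure D1:**
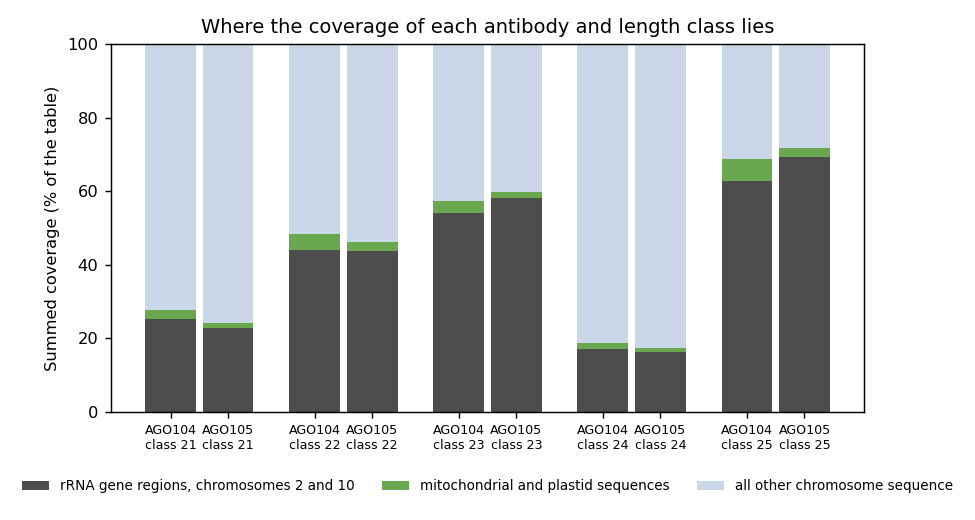
Share of the summed coverage of each of the 10 tables (y axis, %) that lies in the rRNA gene regions of chromosomes 2 and 10, in the mitochondrial and plastid sequences, and elsewhere on the chromosomes. The rRNA regions take 53.9 to 69.3% of the class 23 and 25 tables against 16.4 and 17.1% of the class 24 tables.

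Within the rRNA unit the antibodies differed by gene. LOC111590394 on chromosome 10 took 4.36% of AGO104 and 5.83% of AGO105 coverage in class 23 (ratio 0.749), and 6.49 and 7.38% in class 25 (0.879). LOC111590397 took 19.7 and 19.3% in class 23 (1.02), and 19.5 and 21.2% in class 25 (0.922). LOC111590322 took 0.900 and 0.924% in class 23, and 2.82 and 2.99% in class 25. The small-subunit gene was therefore the most uneven of the 3, with AGO105 the higher antibody in both classes.

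Coverage was piled up at the end of LOC111590397. Its last 60 bases (chr10:35069199-35069258) alone held 8.17% of all AGO104 coverage and 7.85% of all AGO105 coverage in class 23, and 8.10 and 9.25% in class 25, counting the chromosome 10 copy only. The highest depth of each of the 4 tables lay there, at 20266 and 37241 in class 23 and 16041 and 30117 in class 25, between 10 and 20 bases before the end of the gene. This end was the largest single peak in both antibodies and both classes. LOC111590394 had no such pile, with 93.3 to 94.2% of its coverage outside its first and last 60 bases.

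The first 60 bases of LOC111590397 separated the classes instead. They held 2.46 and 2.74% of coverage in class 23 but 0.341 and 0.381% in class 25, with little difference between antibodies. The ends of LOC111590322 separated the antibodies in class 25. Its first 60 bases held 42.5% of the coverage of the gene in AGO104 and 74.9% in AGO105, while its last 60 bases held 54.5 and 24.02%. In class 23 the first 60 bases held 77.9 and 82.9% of it. These segments of 60 bases were chosen after the depth profiles had been seen.

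**Figure D2:**
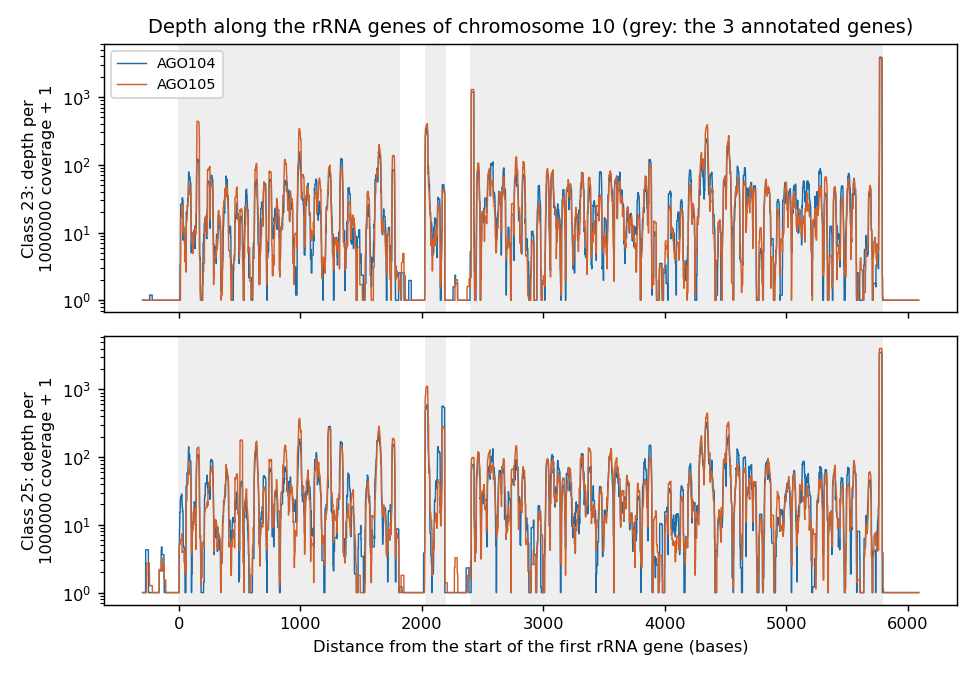
Depth per 1000000 of summed coverage, plus 1, on a log axis, along the 3 rRNA genes of chromosome 10 (grey), for AGO104 (blue) and AGO105 (orange) in class 23 (top) and class 25 (bottom). The tallest peak lies 10 to 20 bases before the end of the last gene in each table, and the class 23 peak at its start is lower in class 25.

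The organelle sequences went the other way. The mitochondrial and plastid sequences together took 3.31% of AGO104 and 1.67% of AGO105 coverage in class 23, a ratio of 1.98 (1.70 to 2.31). Intervals of ratios of coverage shares take the number of places where alignments begin as the sample size. The share in them is that of coverage and not of places. In class 25 they took 5.99 and 2.57%, a ratio of 2.33 (1.97 to 2.75). The plastid took 1.64 against 0.527% in class 23 (ratio 3.11, 2.43 to 4.01) and 3.28 against 0.947% in class 25 (3.46, 2.68 to 4.48). The mitochondrial ratios were lower, 1.46 (1.19 to 1.78) and 1.67 (1.33 to 2.11). In class 25 the mitochondrial share was 2.72% in AGO104 and 1.62% in AGO105. Of the coverage, 1.01 and 0.241% lay at rrn16-ct, a mitochondrial gene of plastid origin. In class 23 the mitochondrial share was 1.67 and 1.15%, with 0.347 and 0.0824% at rrn16-ct. By covered bases the mitochondrial ratios were 1.08 (0.893 to 1.30) and 1.05 (0.865 to 1.28), and by the share of places 1.16 and 0.985. AGO104 was thus the antibody with more organelle coverage in both classes, and the plastid accounted for the larger ratio. For the mitochondrion this held by summed coverage, while its shares of covered bases were close. Of the plastid coverage, between 69.3 and 87.2% lay in its rRNA genes in the 4 tables. By covered bases the ratios for both organelles together were 1.38 and 1.40. By the share of places the plastid ratio was 1.96 in each class, below the intervals given by coverage.

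Organelle genes were placed by RefSeq names and positions. The covered bases of rrn16-ct, the mitochondrial gene for a small-subunit rRNA of plastid origin, began 0 bases from its annotated start in all 4 tables. Of the genes with at least 50 alignments in the 2 tables together, 12 of 17 (70.6%) were past 2-fold in favour of AGO104 in class 23 and 1 (5.88%) in favour of AGO105. In class 25 these were 11 of 21 (52.4%) and 1 (4.76%). Over all loci of at least 50 alignments (covered intervals merged within 100 bp), the shares higher in AGO104 and AGO105 were 42.4 and 11.8% in class 23, and 49.2 and 5.43% in class 25. The class 25 share of the organelle genes was close to that over all loci. All 10 plastid genes compared in class 23 and all 11 in class 25 were higher in AGO104, 9 and 8 of them past 2-fold. These genes share the plastid transcripts and, for the rRNA genes, sequence, and are not independent of each other.

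The 6 plastid rRNA genes lie in 2 inverted copies and were past 2-fold in both classes. ZemaCr113, a small-subunit gene of 1491 bases, had a scaled coverage of 3785 in AGO104 and 880.3 in AGO105 in class 23, and 10331 and 2489 in class 25. This was a 4.30-fold and a 4.15-fold difference. Its inverted copy ZemaCr120 had 3264 and 834.3 in class 23 (3.91-fold) and 10127 and 2538 in class 25 (3.99-fold). ZemaCr114, a large-subunit gene of 2884 bases, had 2558 and 1015 in class 23 (2.52-fold), and 3393 and 1045 in class 25 (3.25-fold). Its copy ZemaCr119 was 3.39-fold and 3.20-fold higher. The small-subunit genes were about 4 times higher and the large-subunit genes nearer 3 times higher, in both classes.

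The short plastid rRNA gene ZemaCr115 (95 bases) set the classes apart. In class 23 it held 62 alignments in AGO104 and 1 in AGO105, a ratio of scaled alignments of 118 (20.5 to 4749). Its copy ZemaCr118 held 57 and 1 (109, 18.8 to 4372). Intervals of ratios of alignments, here and below, take each alignment as independent. Alignments stack at single places, so these intervals are too narrow. In class 25 both were covered in both antibodies, at 408.5 against 113.5 (3.60-fold) and 428.7 against 138.0 (3.11-fold). In class 23 it was thus almost without coverage in AGO105 although that table was the deeper one.

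In the mitochondrion, rrn16-ct was 4.21-fold higher in AGO104 in both classes, at 3470 against 823.6 in class 23 and 10133 against 2407 in class 25. This matched ZemaCr113, and alignments to these genes cannot be told apart where their sequences are shared. The other mitochondrial rRNA genes were closer. For rrn18, the small-subunit gene, the fold was 1.84 and 1.70, and for rrn26, the large-subunit gene, AGO104 was 1.29-fold higher in class 23 and AGO105 1.01-fold higher in class 25. The gene orf111-b lies inside rrn18, so its coverage cannot be told apart from that of rrn18.

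A tRNA gene showed the largest difference of class 25 among the organelle genes with coverage in both antibodies. The plastid gene trnF, for the phenylalanine tRNA, had a scaled coverage of 2052 in AGO104 and 126.4 in AGO105 (407 against 42 alignments, 16.2-fold). The mitochondrial gene trnF-ct had 2141 and 142.6 (15.0-fold). In class 23 the same genes were at 246.3 against 101.7 (2.42-fold) and 174.5 against 82.14 (2.12-fold). In AGO104 the scaled coverage of both genes was thus many times larger in class 25 than in class 23, and in AGO105 it was less than 2 times as large. The plastid trnfM was 8.43-fold higher in AGO104 in class 25, at 413.6 against 49.08, and the plastid trnN 4.71-fold higher in class 23.

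The organelle genes higher in AGO105 past 2-fold were mitochondrial subunit genes of complex I that AGO104 did not cover. In class 23, nad4 held 64 alignments at 7 places in AGO105 and 0 in AGO104. This was 11.2-fold above a floor of 3 alignments set for the AGO104 table. Alignments stacked at a few places are not independent, so folds against this floor, here and below, are no lower bounds. In class 25, nad7 held 74 alignments at 9 places in AGO105 and 0 in AGO104, 15.0-fold above the floor. In the other class, too, each gene had coverage in AGO105 and 0 in AGO104. The photosystem II gene psbA of the plastid was 2.44-fold higher in AGO104 in class 23 and 1.47-fold higher in class 25.

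**Figure D3:**
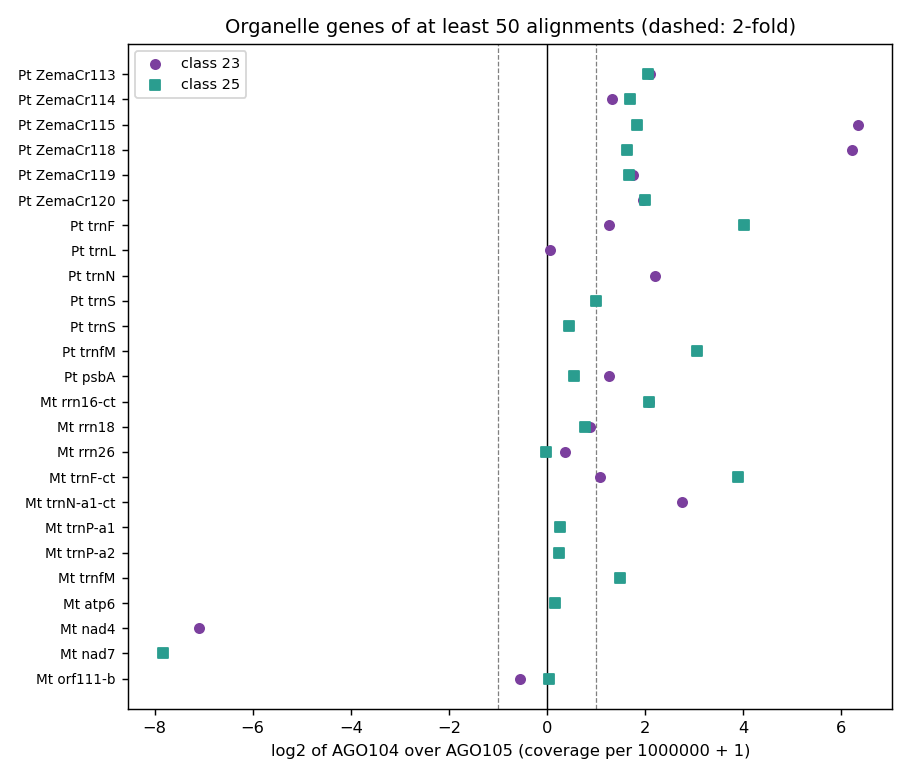
log2 of AGO104 over AGO105 scaled coverage, with 1 added to each, for each organelle gene of at least 50 alignments in class 23 (circles) or class 25 (squares). All plastid (Pt) genes lie to the right of 0, while nad4 and nad7 lie far to the left because AGO104 is at 0 there, so that their positions reflect the added 1.

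By coverage, chromosome shares were mostly close between antibodies, and chromosome 7 stood apart. In class 23 the ratio of shares lay between 0.920 (chromosome 8) and 1.09 (chromosomes 4 and 9) on 9 chromosomes, and chromosome 7 took 4.22% of AGO104 and 3.04% of AGO105 coverage (ratio 1.39, 1.23 to 1.57). In class 25 chromosome 7 took 4.62 and 2.58% (1.79, 1.50 to 2.14), chromosome 1 took 5.38 and 4.02% (1.34, 1.15 to 1.56) and chromosome 3 took 3.02 and 3.71% (0.812, 0.675 to 0.975). The other 7 chromosomes lay between 0.872 and 1.11 by coverage. Of these, chromosome 5 (0.872, 0.706 to 1.07) was at 0.793 (0.711 to 0.883) by covered bases. Without the highest 1% of windows it was at 0.721 (0.644 to 0.805). Chromosome 8 (0.913, 0.711 to 1.16) was at 0.775 (0.683 to 0.878) and 0.856 (0.760 to 0.967) in the same way. Chromosomes 2 and 10 were above 1 by covered bases (1.13 and 1.18). For chromosome 1 the class 25 direction turned by covered bases (0.961, 0.8801 to 1.05) and without the highest 1% of windows (0.9498, 0.869 to 1.04). For chromosome 3 the class 25 ratio was 0.917 (0.822 to 1.02) by covered bases and 0.938 (0.843 to 1.04) without those windows. Outside the rRNA regions it was 0.670 (0.603 to 0.743). The loci chr3:233502491-233502630 and chr3:233525424-233525562 each held 0.251% of AGO104 and 0.641% of AGO105 coverage. Chromosomes 2 and 10, which hold the rRNA regions, each took between 30.9 and 38.3% of the coverage of the 4 tables.

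The chromosome 7 excess was carried by a few deep windows. Without the highest 1% of windows its ratio was 0.995 (0.912 to 1.09) in class 23 and 0.879 (0.771 to 1.002) in class 25. Its deepest loci outside the rRNA regions were long. The locus chr7:46262445-46263934 had a class 25 scaled coverage of 10061 in AGO104 and 2544 in AGO105 (3.96-fold), and its depth along the locus had a Pearson r of 0.99 with that along ZemaCr113. In class 23 it spanned chr7:46262463-46263934, with 4083 and 912.1 (4.48-fold, r of 0.97). Its neighbour chr7:46247805-46249149 had 8764 and 2103 in class 25 (4.17-fold), with a best r of 0.75 with any organelle stretch, and chr7:46266349-46269206 had 4021 and 1143 (3.52-fold). The share of chromosome 7 in places, where each place counts once whatever its depth, was 7.88% (7.51 to 8.26) in AGO104 and 7.15% (6.88 to 7.42) in AGO105 in class 23, and 7.87 and 6.64% in class 25. The excess was therefore smaller by places than by coverage, and was not seen without the highest 1% of windows.

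In windows of 0.5 Mb, more windows were higher in AGO105 than in AGO104. Of 4215 windows, 3653 had at least 20 class 23 alignments in the 2 tables together. Of these, 690 (18.9%) were past 2-fold in favour of AGO104 and 953 (26.1%) in favour of AGO105 on log2(scaled coverage + 1). In class 25, 2020 of 4216 windows were compared, with 444 (22%) higher in AGO104 and 729 (36.1%) higher in AGO105. The median log2 ratio was −0.09 in class 23 and −0.28 in class 25.

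Correlation across windows was weak. The Pearson r across windows was 0.27 in class 23 and 0.05 in class 25, and Spearman's rho was 0.32 and −0.05, as a description of sparse counts in windows that share a library. In windows of 1 Mb the r was 0.56 and 0.26, and in windows of 0.1 Mb −0.10 and −0.013. The windows held few alignments each. Alignments began at a median of 3 places per window in AGO104 and 7 in AGO105 in class 23, and at 2 and 4 in class 25. At this depth a window without coverage in 1 table could not be told from a window not sampled there.

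Among windows of at least 100 alignments the order of the counts turned. In class 23, 113 of 654 were higher in AGO104 and 96 in AGO105, and in class 25, 55 of 147 were higher in AGO104 and 7 in AGO105. By these counts sparsely covered windows were more often higher in AGO105, and well covered windows more often in AGO104. The filter summed alignments over tables of unequal depth. A window covered in AGO105 alone therefore passed it at a lower scaled value than a window covered in AGO104 alone. AGO104 covered 3804 windows and AGO105 4136 in class 23, and 2585 and 3666 in class 25. The counts of sparse windows are thus not separate from the difference in depth. Coverage was concentrated: the 42 highest windows held 61.4 and 63.4% of class 23 and 74.8 and 76.4% of class 25.

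**Figure D4:**
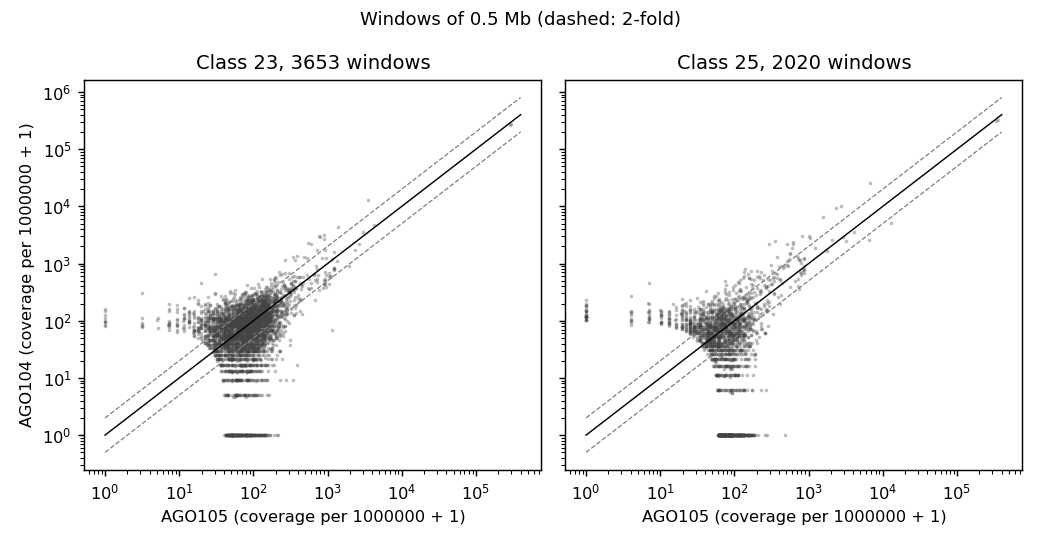
Scaled coverage plus 1 of AGO105 (x axis) and AGO104 (y axis) in each 0.5 Mb window of at least 20 alignments, on log axes, for class 23 (left, 3653 windows) and class 25 (right, 2020 windows). Points spread past the dashed 2-fold lines on both sides at low coverage, with rows at the left and bottom for windows that 1 antibody does not cover.

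The windows with the largest differences were covered by 1 antibody only, or nearly so. In class 23 the window from 116500001 on chromosome 8 had 39 alignments at 6 places in AGO104 and 0 in AGO105, at least 24.9-fold higher. The window from 156500001 on chromosome 5 had 101 alignments at 12 places in AGO105 and 0 in AGO104, 17.6-fold above the floor. The window from 147500001 on chromosome 5 had 77 alignments in AGO104 and 1 in AGO105, a ratio of 147 (25.6 to 5880). In these windows 1 locus held between 18.2 and 86.5% of the coverage. In the window from 153500001 on chromosome 2, 86.5% of the AGO105 coverage lay in chr2:153782927-153782947.

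The largest class 25 differences were all in windows that 1 antibody did not cover. The window from 86000001 on chromosome 9 had 49 alignments at 4 places in AGO104 and 0 in AGO105, 25.3-fold above the floor. The window from 77000001 on the same chromosome had 158 alignments at 20 places in AGO105 and 0 in AGO104, 31.9-fold above the floor. Its deepest locus held 15.3% of the AGO105 coverage there. In the window from 207500001 on chromosome 1, which AGO105 did not cover, 100.0% of the AGO104 coverage lay in chr1:207527823-207527851. The floor of these folds is 3 alignments in the table without coverage, and they are no lower bounds.

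Covered intervals of the 2 antibodies within 100 bp of each other were merged into loci. In class 23 this gave 38571 loci, of which 2629 (6.82%, 6.57 to 7.07) were covered by both antibodies, 11284 by AGO104 alone and 24658 by AGO105 alone. The shared loci were 18.9% of the AGO104 loci and 9.63% of the AGO105 loci. In class 25, 916 of 15849 loci were shared (5.78%, 5.42 to 6.15), which was 18.2% of the AGO104 and 7.80% of the AGO105 loci. Few loci were shared, and they held most of the coverage. Their median number of alignments was 7 in AGO104 and 8 in AGO105 in class 23, and 11 and 10 in class 25. They held 73.5 and 70.04% of class 23 coverage and 86.1 and 80.9% of class 25 coverage. Outside the rRNA regions and organelles they still held 38.8 and 26.6% in class 23 and 56.0 and 33.8% in class 25.

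Loci of only 1 antibody were short and shallow. Their median length was 21 bases in class 23 and 23 bases in class 25, that is 1 alignment length, and their median number of alignments was 5 in class 23 for both antibodies, and 6 and 5 in class 25. Such a locus is a stack of a few alignments at a single place. At this depth a locus missing from the other table could not be told from one not sampled there.

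Among the 323 class 23 loci of at least 50 alignments, 137 (42.4%) were higher in AGO104 past 2-fold and 38 (11.8%) in AGO105, with a median log2 ratio of 0.58. In class 25 these were 127 (49.2%) and 14 (5.43%) of 258, with a median of 0.98. The direction was opposite to that of the window counts. Outside the rRNA regions and the organelles, 119 of 288 were higher in AGO104 and 37 in AGO105 in class 23, and 110 and 13 of 215 in class 25. Some loci repeated each other's values. In class 25 chr1:29685364-29685386, chr2:110112338-110112360 and chr5:215849047-215849069 each had the 413.6 and 49.08 of the plastid trnfM. Whether the same reads were aligned to such loci was not tested, so counts of loci here and below are not counts of separate observations.

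The 2 classes gave the same direction at most loci they share. Of 160 loci compared in both, 102 were higher in AGO104 in both and 19 higher in AGO105 in both, while 39 changed direction. Past 2-fold, 72 were higher in AGO104 in both classes and 4 in AGO105. Whether the classes of an antibody come from separate precipitations is not given, so this is no replicate.

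Long loci and short loci differed. Of the nuclear loci outside the rRNA regions with at least 200 covered bases, 30 of 39 in class 23 and 27 of 33 in class 25 were higher in AGO104 past 2-fold and 0 were higher in AGO105, with median log2 ratios of 1.73 and 1.77. Among shorter loci, 89 of 249 were higher in AGO104 and 37 in AGO105 in class 23, and 83 and 13 of 182 in class 25. These length groups were set after the values had been seen. In 13 of the 39 long loci of class 23 the depth profile had an r of at least 0.8 with a stretch of the plastid sequence, and in 5 with a stretch of the mitochondrial sequence. In class 25 these were 8 and 5 of 33, and 2 more reached it with the rRNA unit (r of 0.93 and 0.98). These 2, chr10:35062939-35063359 and chr2:157585640-157586060, lie just ahead of the rRNA regions, and neither was past 2-fold. Of the 21 and 18 long loci below an r of 0.8 with any of these sequences, 15 and 17 were higher in AGO104 past 2-fold. Each r of a depth profile is the highest over all shifts and both directions, and no level for unrelated sequences was computed. Among the shorter loci the lowest such r was 0.61 in class 23 and 0.66 in class 25. An alignment to a nuclear copy of an organelle gene and one to the organelle cannot be told apart by these tables.

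Some of the loci with most AGO104 coverage outside the rRNA regions resembled organelle genes in their depth profile. In class 25 chr1:15412852-15414341 had a scaled coverage of 9298 in AGO104 and 2253 in AGO105 (4.13-fold, r of 0.86 with rrn16-ct). In class 23 chr1:56684028-56684854 had 2684 and 556.1 (4.83-fold, r of 0.98 with ZemaCr120). The 73-base loci chr10:100533598-100533670 and chr1:374033-374105 followed trnF-ct at an r of 1.00 in class 25, with 432 against 39 and 422 against 42 alignments. They were 18.3-fold and 16.6-fold higher in AGO104. In class 23 they were 2.11-fold and 2.20-fold higher, as for the tRNA gene itself.

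A set of loci higher in AGO105 was also made of near-equal copies. In class 25 chr3:233502491-233502630 and chr3:233525424-233525562 had 2515 each in AGO104 and 6413 each in AGO105, and chr10:114216880-114216923 had 2476 and 6393. The difference was 2.55 to 2.58-fold in favour of AGO105. In class 24 the same loci were at 606.5 to 611.2 in AGO104 and 1206 to 1222 in AGO105, and in class 21 at 119.2 against 115.8 to 136.1. They were the highest nuclear loci of AGO105 class 25 outside the rRNA regions, and in class 21 the antibodies lay close to each other there. The depth profile of the chromosome 10 copy had its highest r, 0.99, with a stretch of the rRNA unit, over its 44 covered bases. The chromosome 3 copies had theirs, 0.94, with stretches of the mitochondrial sequence, so the r does not identify these short loci.

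In class 23, 11 loci of exactly 21 bases on 7 chromosomes had nearly the same coverage as each other. In AGO104 they lay between 370.4 and 487.3 with a median of 426.7, and in AGO105 between 804.2 and 915.8 with a median of 867.4. The median log2 ratio was −1.03, and 7 of the 11 were past 2-fold. Whether the same reads were aligned to every copy was not tested, so the 11 loci cannot be counted as separate observations. They were picked by a floor of 300 alignments in AGO105 after the values had been seen. The highest of them in AGO105, chr1:102999640-102999660, was the lowest in AGO104, with 370.4 against 915.8, 2.47-fold higher in AGO105.

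The largest differences at single loci were at loci of 19 to 244 bases. In class 23 chr4:120945267-120945285 and chr4:120772810-120772828 each had 90 alignments in AGO104 and 0 in AGO105, with equal sums, at least 51.9-fold higher in AGO104. The locus chr2:153782927-153782947 had 77 alignments in AGO105 and 0 in AGO104, 13.4-fold above the floor. Among loci covered in both, chr1:158956051-158956135 had 90 alignments in AGO104 and 2 in AGO105 (ratio 85.9, 23.1 to 720), and chr6:14390830-14390860 had 2 and 119 (31.2 in favour of AGO105, 8.44 to 260). In class 25 chr7:46249267-46249294 had 53 and 2 (43.1, 11.4 to 365). The locus chr6:14395389-14395465 had 0 in AGO104 and 154 alignments in AGO105, 31.2-fold above the floor.

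On chromosome 6, loci from chr6:14282437-14282464 to chr6:14395389-14395465 went both ways within a short distance. In class 25 chr6:14395121-14395145 had 201.7 in AGO104 and 92.03 in AGO105, next to chr6:14395389-14395465 with 0 and 472.3. The locus at chr6:14294912-14294953 had 671.2 and 261.8 in class 25, while in class 23 the locus there (chr6:14294914-14295020) had 281.9 and 421.2. This group of loci was singled out after its values had been seen.

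The share of covered bases that class 24 of the same antibody also covered was 23.4% (22.9 to 24.03) in AGO104 and 27.2% (26.8 to 27.7) in AGO105 for class 23. For class 25 it was 34.6% (33.7 to 35.5) and 29.1% (28.4 to 29.8). The intervals apply the share of covered bases to the number of places where alignments begin, as the sample size. Weighted by depth, 69.99 and 73.7% of class 23 coverage and 84.5 and 82.8% of class 25 coverage lay on class 24 bases. Most positions of these classes were therefore not covered in class 24, while most of their depth, rRNA included, was. In the rRNA regions, between 93.4 and 96.9% of the covered bases lay on class 24 bases of the same antibody.

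Outside the rRNA regions and the organelles the shares were lower. For class 23, 19.7% of AGO104 and 25.5% of AGO105 bases lay on class 24 of the same antibody, and for class 25, 27.2 and 25.3%. Classes 21 and 22 gave 22.6 and 18.6% in AGO104 and 22.6 and 19.8% in AGO105 there. By coverage the class 23 shares there were 32.1 and 36.3%, and the class 25 shares 54.0 and 41.8%. Outside the rRNA regions most of the class 23 depth therefore lay off class 24 bases.

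These shares depend on the class 24 tables, which differ in size. Class 24 of AGO105 covered 3675918 bases and that of AGO104 1716670. Against the AGO104 class 24 table, the class 23 shares were 23.4% for AGO104 and 17.8% for AGO105, a ratio of 1.31. Against the AGO105 class 24 table they were 30.1 and 27.2%, a ratio of 1.11. For class 25 the ratios were 1.61 and 1.36. Against the same class 24 table AGO104 therefore had the higher share of bases in both classes. Classes 21 and 22 gave ratios of 1.28 to 1.50 in the same way. By covered bases this was thus not particular to classes 23 and 25. By coverage the class 23 ratios were 1.005 and 0.990, and the class 25 ratios 1.05 and 1.04. Outside the rRNA regions and organelles, the ratios by coverage were 1.20 and 1.07 in class 23, and 1.51 and 1.37 in class 25. Classes 21 and 22 gave 0.995 and 0.993, and 1.15 and 0.993 there, so the class 25 ratios were the largest. Each class 23 and class 25 table also shared more bases with the AGO105 class 24 table than with that of AGO104.

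Where a class 23 or class 25 stretch overlapped a class 24 stretch, about 35% of the pairs ended at the same base on 1 side. Isolated stretches of the usual length that lay on class 24 bases made up 18.9% (18.2 to 19.5) in AGO104 and 26.9% (26.3 to 27.4) in AGO105 for class 23, and 23.6% (22.4 to 24.9) and 26.7% (25.9 to 27.6) for class 25. Pairs in which each was an isolated stretch of its class length shared 1 end in 590 of 1677 cases (35.2%, 32.9 to 37.5) in AGO104 and 1404 of 3967 (35.4%, 33.9 to 36.9) in AGO105 for class 23. For class 25 these were 260 of 715 (36.4%, 32.8 to 40.01) and 530 of 1503 (35.3%, 32.8 to 37.7). The antibodies did not differ beyond these intervals in either class, with ratios of 0.994 (0.891 to 1.11) and 1.03 (0.870 to 1.22).

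The shared ends were split evenly. In class 23 the low end was shared in 18.2 and 17.7% of pairs and the high end in 17.0 and 17.7%, and in class 25 in 18.3 and 17.7%, and 18.0 and 17.6%. The other offsets held a mean of 1.52 to 1.62% of pairs each in the 4 tables, and the highest of them 4.06 to 7.97%. The tables carry no strand, so a low or high end cannot be assigned to the 5′ or 3′ end of an RNA. Weighted by depth, 43.1% of AGO104 and 37.4% of AGO105 pairs shared an end in class 23, and 51.0 and 38.2% in class 25.

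**Figure D5:**
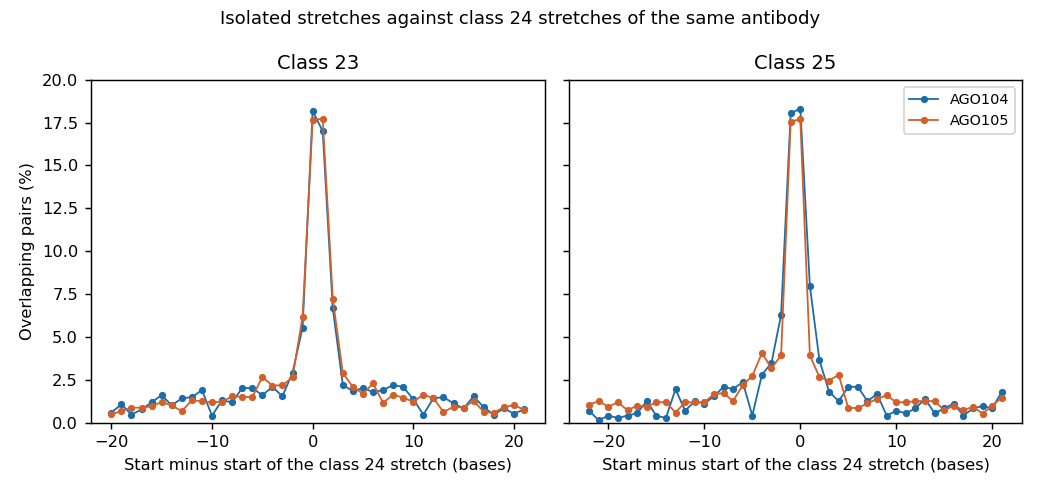
Percent of overlapping pairs (y axis) by the start of an isolated class 23 (left) or class 25 (right) stretch minus the start of the class 24 stretch of the same antibody, in bases (x axis), for AGO104 and AGO105. The 2 central offsets, where the low or the high ends coincide, hold 17.0 to 18.3% each, and the curves of the antibodies lie close together there.

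Positions shared directly between the tables were also few. Outside the rRNA regions and organelles, 14.2% of the AGO104 class 23 bases were covered in AGO105 class 23, and 18.2% of the AGO104 class 25 bases in AGO105 class 25. The reverse shares were 7.30 and 8.42%. The share of AGO104 class 25 bases covered in AGO104 class 23 was 17.9%, and that of AGO105 class 25 bases in AGO105 class 23 was 10.9%. These shares rise with the size of the table that is compared against, which was not adjusted for.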

How the data were processed

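The members, gene lists and comparisons were chosen with earlier results of these data known. The deposited tables hold coverage (the depth per interval, a signal). Per the submitters' processing notes, Bowtie 1.2.2 and bedtools were used. For the libraries, the methods of the study name Trimmomatic, the B73 version 5 genome and Bowtie with the options --best -k 2. Whether this holds for the class tables, and which libraries they pool, is not given in the sources used here. The tables of the 7 libraries cover chromosome 2 only and were not used. The authors' coverage was scaled to 1000000 per table. An alignment was counted at each rise in depth, which misses starts that abut an end, and a place was a position with such a rise. Windows (0.5 Mb, at least 20 alignments), loci merged within 100 bp (at least 50) and organelle genes were called past 2-fold on log2(scaled coverage + 1). The text names the top of the lists of the 5 windows and 3 loci with the largest ratios, the highest loci, all chromosomes, and groups stated as picked after their values were seen. Chromosome names and positions are those of the tables (1-based, build not stated); gene names come from RefSeq (Zm-B73-REFERENCE-NAM-5.0), whose coordinates are not printed. A self-test on simulated alignments checked the counting. Python 3.11.15, numpy 2.4.6, scipy 1.17.1 and pandas 2.3.3 were used. Intervals are 95% Clopper-Pearson, or for ratios of shares the quotients of such bounds, and reads without molecular identifiers are not independent molecules. For shares of coverage or of covered bases the number of places stood as the sample size. For ratios of alignments the number of alignments did, which makes those intervals too narrow where alignments stack.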

Additional observations from a re-analysis of the deposited data

Results flagged for a closer look

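At 2 loci the direction between antibodies was opposite in the 2 classes, past 2-fold in each. The difference was not tested, since each value comes from 1 table. At chr3:26965874-26965946 the scaled coverage was 35.1 in AGO104 and 82.7 in AGO105 in class 23 (9 and 43 alignments), and 509.0 and 177.9 in class 25 (101 and 58). The log2 ratio was −1.21 in class 23 and 1.51 in class 25, a difference of 2.73. At chr3:139010706-139010995 it was 201.0 and 40.02 in class 23 (50 and 19 alignments), and 30.3 and 168.7 in class 25 (6 and 46). The log2 ratios were 2.30 and −2.44, a difference of −4.74. These were 2 of the 160 loci compared in both classes. The class 25 values of the first were near those of the mitochondrial trnfM, at 504.4 and 177.9 (100 and 58 alignments). Whether the same reads were aligned to both was not tested.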

How the results depend on the processing

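No paired analysis was possible because the tables carry no replicate numbers. Of 72 alternatives for whole comparisons, 33 stayed within the tolerance (1.5 times a count, the counting interval of a ratio or share, or 0.1 of a correlation), 30 moved beyond it and 9 turned the direction. A filter of 100 alignments left 209 windows past 2-fold in class 23 (113 higher in AGO104, 96 in AGO105) and 62 in class 25 (55 and 7), and turned the direction. Windows of 0.1 and 1 Mb gave 2626 and 655 in class 23, a 4-fold threshold 677 and 688 in classes 23 and 25, and no filter 2792 in class 25. At 4-fold, 29.2 and 24.9% of the called windows were higher in AGO104, against 42.0 and 37.9% at 2-fold, and by places 30.4 and 26.8%. The correlation became −0.10 and −0.013 at 0.1 Mb, 0.56 and 0.26 at 1 Mb, and −0.025 by covered bases in class 25. The organelle ratio was 1.38 and 1.40 by covered bases and 1.92 in class 25 outside the rRNA regions. Loci in both tables were 5.96, 9.02 and 6.47% (merge distances of 0 and 500 bp, depth of at least 2) in class 23, and 7.08, 6.38 and 5.36% (0 bp, 500 bp, outside the rRNA regions and organelles) in class 25. A filter of 100 alignments left 84 loci past 2-fold (64 higher in AGO104) and 89 (83). The ratio of shares on class 24 bases, 0.860 in class 23, was 1.69 with class 24 of the other antibody, 1.31 and 1.11 with that of AGO104 or AGO105 for both, 0.9496 by depth, 0.734 outside the highest 1% of windows and 0.775 outside the rRNA regions and organelles. In class 25, 1.19 became 1.84, 1.61, 1.36, 1.02, 1.01 and 1.08. Shared ends by depth gave ratios of 1.15 and 1.33, the class 25 share of the 5 classes by bases 1.02, and the top 1% of 0.1 Mb windows 1.01 in class 25 (0.978 at 0.5 Mb). The cause was not tested. Of 100 alternatives for single chromosomes and tables, 50 moved and 50 did not. Depth limits the windows and loci, many of which hold few alignments.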
